A study of Homo sapiens with 5 samples.

Results

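The SR splicing factors are the serine/arginine-rich proteins encoded by the SRSF genes. The 10 genes described here (SRSF1, SRSF2, SRSF3, SRSF4, SRSF5, SRSF6, SRSF7, SRSF9, SRSF10 and SRSF11) were taken by gene symbol from each table of gene values and are 10 of the 19716 genes with a read in at least 1 library. All 10 had reads in all 5 libraries and passed each filter on low values used below, including a mean of at least 1 TPM (reads per transcript length, scaled to a sum of 1000000 per library), which 13921 genes passed.

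SR proteins bind exonic enhancer sequences in pre-mRNA through RNA recognition motifs, and their arginine/serine-rich domain helps to bring the U1 and U2 snRNPs to nearby splice sites, often against hnRNP proteins that bind silencers. The domain is phosphorylated by SRPK and CLK kinases and carried into the nucleus by transportin 3. Many SR genes limit their own output through exons or introns whose inclusion brings in a premature stop codon, so that part of their RNA is removed by nonsense-mediated decay. The values below are per gene and do not separate such RNAs from the coding ones, although the GENCODE annotation holds between 1 (SRSF5 and SRSF6) and 6 (SRSF7) transcripts of that class for each of the 10 genes.

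The RNA came from HEK293T, an established line of human embryonic kidney cells with the SV40 large T antigen, taken 48 h after cells had been transfected with plasmid DNA (1 ug in total) by X-tremeGENE 9. In 4 groups the cells received 5 guide RNAs directed at the uPA promoter (uPA is a secreted protease encoded by PLAU) and a plasmid in which the PGK promoter drives dCas9, a Cas9 without nuclease activity, joined to a blue fluorescent protein (BFP) and to the catalytic domain of DNMT1, DNMT3A or DNMT3B or to EGFP. DNMT1 maintains DNA methylation, DNMT3A and DNMT3B methylate DNA de novo, and EGFP has no methyltransferase activity. With these guides the paper found raised methylation of the uPA promoter for the DNMT3A and DNMT3B fusions, and none for the DNMT1 or EGFP fusion. The fifth group received pUC19, a plasmid with neither dCas9 nor guides. The labels state that BFP-positive cells were sorted in every group, which pUC19 cannot yield, so how the control cells were collected is unclear. Each group had 1 library. A difference between single libraries is therefore given without a p-value, and fewer cells of a kind cannot be told apart from less RNA per cell.

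The libraries held 26250000 to 36140000 reads on genes (rounded to the nearest 10000), and 3 reads equalled 0.083 to 0.114 reads per 1000000. The row of the methyltransferase carried by the plasmid stood at 14582 TPM (DNMT1), 16745 TPM (DNMT3A) and 33141 TPM (DNMT3B) in its own library and at no more than 175.5, 21.3 and 45.1 TPM in the others. PLAU had 1 to 6 reads in the fusion libraries and 106 in the pUC19 library. Of 6 HEK293 markers, IRS4 stood at 395.9 TPM in the pUC19 library and at 66.3 to 76.5 TPM in the fusion libraries, NEFL, NEFM and LIN28B at 28.9 to 193.0 TPM over all libraries, PAX2 at 6.08 to 7.72 TPM and NEFH at no more than 0.46 TPM. IRS4, NEFL and NEFM passed the test of the 4 fusions against pUC19 described below (log2 fold changes of -2.44, -1.49 and -1.88, adjusted p = 0.00274, 0.0255 and 0.0255, edgeR; without the DNMT1 library NEFM had an adjusted p of 0.0527). Among markers of other cell types, PTPRC, PECAM1, ALB, HBB and KRT5 were under 1 TPM in every library (ALB -0.96 and PECAM1 0.22 in that test, neither past the threshold), COL1A1 was at 3.87 to 7.97 TPM and CD3E had no row. The part of these cell or library differences in the SR values was not tested.

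Where promoter sequences were at hand, they give the context of these genes. RefSeq promoter windows (the 250 bases before an annotated start, table of GRCh38.p14) were found for 9 members, in 11 windows, and placed on GRCh37, the build of the files, by exact match. The windows of the members were rich in CpG, with 13 to 36 CpG dinucleotides against a median of 11 over 35116 windows. The windows of SRSF5, SRSF9 and SRSF10 and a window of SRSF11 lay wholly inside the gene as annotated in GENCODE. Those of SRSF4, SRSF6 and SRSF3 are shown because SRSF4 and SRSF3 are at the 2 ends of the differences from pUC19 and SRSF6 is a close relative of SRSF4. They are 5′ to 3′ on the strand of the gene and stop before the first base of the gene in GENCODE. Capitals mark the GC box motif GGGCGG. In the SRSF3 window they mark CCAAT or its reverse complement. The other capitals there are TATAAA. Matches were sought on either strand. The SRSF4 window is chr1:29508413-29508662 (minus strand), that of SRSF6 is chr20:42086286-42086532 (plus strand) and that of SRSF3 is chr6:36561889-36562129 (plus strand).
SRSF4: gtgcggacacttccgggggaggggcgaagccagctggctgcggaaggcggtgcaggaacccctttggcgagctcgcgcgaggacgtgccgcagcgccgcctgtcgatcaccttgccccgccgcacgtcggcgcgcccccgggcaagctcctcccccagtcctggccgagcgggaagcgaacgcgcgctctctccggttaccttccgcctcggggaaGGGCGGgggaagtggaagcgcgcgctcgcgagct
SRSF6: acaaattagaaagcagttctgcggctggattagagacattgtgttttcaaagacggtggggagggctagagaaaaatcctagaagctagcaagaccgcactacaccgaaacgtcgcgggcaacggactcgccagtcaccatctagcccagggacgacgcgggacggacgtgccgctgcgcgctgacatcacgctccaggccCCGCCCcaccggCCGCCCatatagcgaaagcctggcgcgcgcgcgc
SRSF3: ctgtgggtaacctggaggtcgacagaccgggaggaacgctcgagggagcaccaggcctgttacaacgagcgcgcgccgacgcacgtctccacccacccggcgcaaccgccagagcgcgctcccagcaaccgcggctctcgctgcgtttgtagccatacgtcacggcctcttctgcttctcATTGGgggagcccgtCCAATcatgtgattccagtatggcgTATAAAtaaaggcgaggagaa

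Of the 5 motifs searched on both strands, GGGCGG was in windows of 3 of the 9 members (SRSF4, SRSF6 and SRSF7) and in 42.6% of all windows. CCAAT was in 1 (SRSF3, 32.0% of all windows) and TATAAA in 3 (SRSF3, SRSF7 and SRSF11, 10.7%). The TATAAA matches of SRSF7 and SRSF11 lay inside the gene as annotated in GENCODE, not before its start. The E-box CACGTG (6.34% of all windows) and the cAMP response element TGACGTCA (1.65%) had no match in the windows of the 9 members. A match describes these letters only.

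All 10 SR genes were among the more abundant RNAs of these cells. Their levels ran from 125.1 TPM (SRSF6, DNMT1 fusion) to 380.1 TPM (SRSF4, DNMT3A fusion). In every library each was at or above the 90.6th percentile of the 13921 genes with a mean of at least 1 TPM. The summed level of the 10 genes was 1949 TPM with the DNMT1 fusion, 2511 TPM with the DNMT3A fusion, 2467 TPM with the DNMT3B fusion, 2303 TPM with the EGFP fusion and 2204 TPM with pUC19. The DNMT1 library thus lay under pUC19 and the other 3 fusion libraries above it. TPM is scaled within a library, and the median of all 13921 genes in the DNMT1 library was -0.14 (log2) from pUC19 on this scale and 0.01 after TMM scaling (a trimmed mean of ratios that sets most genes level), while the other 3 fusion libraries were within 0.02 on either scale.

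**Figure D1:**
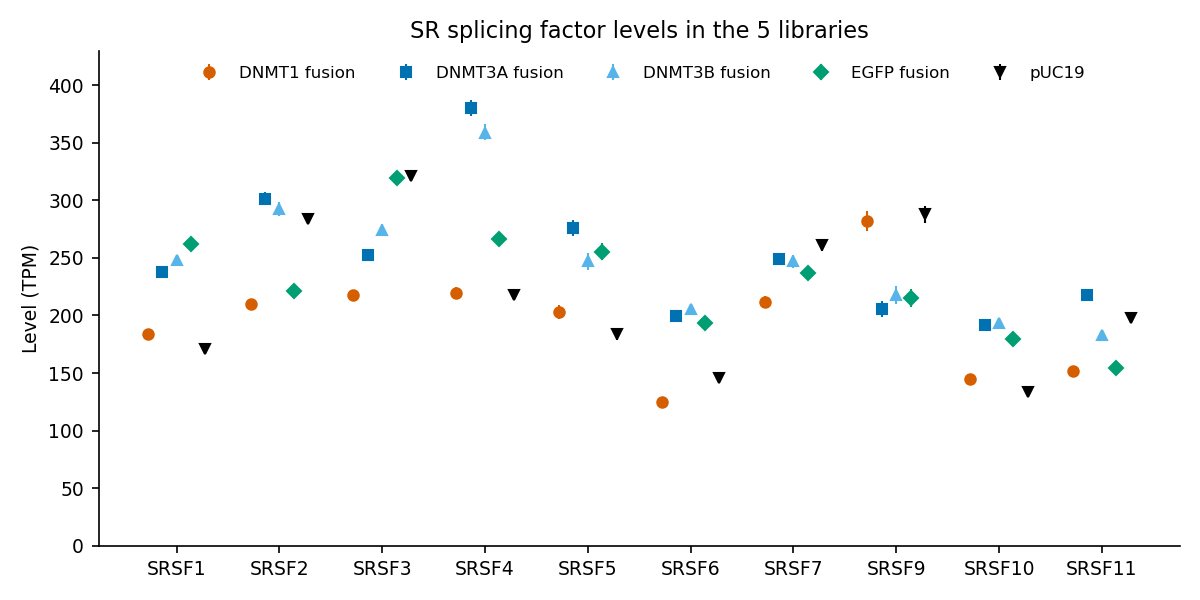
Levels of the 10 SR genes in TPM in each of the 5 libraries. Points are single libraries and bars are 95% Poisson intervals of the reads (counting error only). SRSF4 was the highest gene with the DNMT3A (380.1 TPM) and DNMT3B (358.9 TPM) fusions. SRSF9 was the highest with the DNMT1 fusion (282.1 TPM), and SRSF3 with pUC19 (321.4 TPM) and the EGFP fusion (319.5 TPM).

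The order of the members differed between libraries. SRSF3 was the most abundant with pUC19 (321.4 TPM) and with the EGFP fusion (319.5 TPM), SRSF4 with the DNMT3A and DNMT3B fusions, and SRSF9 with the DNMT1 fusion (282.1 TPM). SRSF4 made up 9.89% of the summed level with pUC19 and 15.1% with the DNMT3A fusion. Among neighbours in the order, for example, SRSF9 and SRSF2 with pUC19, SRSF4 and SRSF1 with the EGFP fusion, and SRSF4, SRSF3, SRSF7, SRSF2 and SRSF5, each beside the next, with the DNMT1 fusion had overlapping counting intervals and cannot be ranked at this depth.

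SRSF4, SRSF5 and SRSF6 are close relatives with paired RNA recognition motifs. SRSF4 (chromosome 1, 29474255 to 29508412, minus strand, GRCh37) stood at 218.1 TPM with pUC19, 219.5 TPM with the DNMT1 fusion, 380.1 TPM with the DNMT3A fusion, 358.9 TPM with the DNMT3B fusion and 266.6 TPM with the EGFP fusion. The DNMT3A and DNMT3B libraries were the 2 highest and did not overlap the others. SRSF5 (chromosome 14, 70193617 to 70238722, plus strand), which was first found as an insulin- and growth-responsive gene in liver, was at 184.2 TPM with pUC19 and at 202.8, 276.0, 246.9 and 255.6 TPM with the DNMT1, DNMT3A, DNMT3B and EGFP fusions. All 4 fusion libraries were above pUC19. SRSF6 (chromosome 20, 42086533 to 42094686, plus strand) was at 146.0 TPM with pUC19, at 125.1 TPM with the DNMT1 fusion and at 199.2, 205.2 and 193.3 TPM with the DNMT3A, DNMT3B and EGFP fusions. The DNMT1 and pUC19 libraries were the low ones for this gene.

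SRSF1 and SRSF9 share a domain layout, and SRSF1, the founding member of the family, acts in splice site choice, export and translation. SRSF1 (chromosome 17, 56078280 to 56084707, minus strand) was at 170.9 TPM with pUC19, 184.0 TPM with the DNMT1 fusion, 237.6 TPM with the DNMT3A fusion, 247.9 TPM with the DNMT3B fusion and 261.9 TPM with the EGFP fusion. The 4 fusion libraries were all above pUC19, with DNMT1 the nearest to it. SRSF9 (chromosome 12, 120899475 to 120933749, minus strand) went a different way, with 287.8 TPM with pUC19, 282.1 TPM with the DNMT1 fusion and 205.5, 217.6 and 215.4 TPM with the DNMT3A, DNMT3B and EGFP fusions. It was the only member for which the DNMT1 library was the highest of the 4 fusion libraries. The gene overlaps DYNLL1, a dynein light chain gene on the opposite strand, which stood at 455.2 TPM with pUC19 and at 497.2, 323.6, 316.4 and 381.0 TPM with the DNMT1, DNMT3A, DNMT3B and EGFP fusions. It also overlaps GATC on that strand. GATC was at 69.6 TPM with pUC19 and at 43.0, 50.6, 49.3 and 66.0 TPM in the same order, with DNMT1 the lowest. Whether counting used the strand is not given in the sources used here, and the part of these overlaps in the SRSF9 values was not tested.

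SRSF3 and SRSF7 are the small members that link splicing to export of mRNA through NXF1. SRSF3 (chromosome 6, 36562130 to 36573377, plus strand) was at 321.4 TPM with pUC19, 319.5 TPM with the EGFP fusion, 274.4 TPM with the DNMT3B fusion, 252.9 TPM with the DNMT3A fusion and 218.0 TPM with the DNMT1 fusion. The EGFP and pUC19 libraries had overlapping counting intervals, and the 3 methyltransferase fusions were below both. The annotation names 5 processed copies of SRSF3, 2 of SRSF6 and 1 each of SRSF1, SRSF2, SRSF9 and SRSF10. Counting of unique reads could have missed reads shared with copies that were among the RNA sequences used for alignment. SRSF7 (chromosome 2, 38970741 to 38978636, minus strand) varied the least, from 211.8 TPM with the DNMT1 fusion to 260.9 TPM with pUC19, a ratio of 1.23 between the highest and the lowest library.

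SRSF2 is a nuclear member that stays in speckles, SRSF10 represses splicing when it is dephosphorylated, and SRSF11 is a more distant relative that binds U2AF. SRSF2 (chromosome 17, 74730197 to 74733415, minus strand) was at 283.8 TPM with pUC19 and at 210.0, 301.4, 292.5 and 220.8 TPM with the DNMT1, DNMT3A, DNMT3B and EGFP fusions. The DNMT1 and EGFP libraries formed the low pair. MFSD11, which overlaps SRSF2 on the opposite strand, was at 13.2 to 17.03 TPM. SRSF10 (chromosome 1, 24290837 to 24307417, minus strand) was at 133.7 TPM with pUC19 and at 144.6, 191.9, 193.4 and 179.2 TPM with the DNMT1, DNMT3A, DNMT3B and EGFP fusions, all above the control. SRSF11 (chromosome 1, 70671365 to 70718735, plus strand) was at 197.8 TPM with pUC19 and at 151.4, 217.5, 183.0 and 154.1 TPM, so that only the DNMT3A library was above it. The relatives SRSF8 and SRSF12, which lie outside these 10, were at 17.7 to 24.8 and 12.1 to 14.8 TPM.

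The comparison of each fusion with pUC19 asks how far the family moved in cells that received dCas9 and guides. Differences are log2 ratios of TPM + 0.1, with 95% intervals from an exact conditional binomial model of the reads, which cover counting error only. No SR gene differed by 2-fold or more, the fold the study used, in any of the 4 fusion libraries. The share of the 13921 genes that did was 6.95% (DNMT1), 12.0% (DNMT3A), 11.5% (DNMT3B) and 7.71% (EGFP). The differences ran from -0.56 (95% interval -0.60 to -0.52, SRSF3, DNMT1 fusion) to 0.80 (0.76 to 0.84, SRSF4, DNMT3A fusion).

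At a fold of 1.5, no SR gene passed with the DNMT1 fusion, where 23.2% of genes did. SRSF4 alone passed with DNMT3A (log2 ratio 0.80, 32.2% of genes) and with DNMT3B (0.72, 31.5% of genes), and SRSF1 alone with EGFP (0.62, 24.4% of genes). SRSF5 with the DNMT3A fusion (0.58) was just under that fold. The median difference of the 10 genes was -0.13 with DNMT1 beside -0.14 over all genes, and 0.29, 0.23 and 0.14 with the DNMT3A, DNMT3B and EGFP fusions beside -0.02, -0.01 and 0.00. The fusions share the pUC19 library, so these 4 sets of values are not independent of each other.

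**Figure D2:**
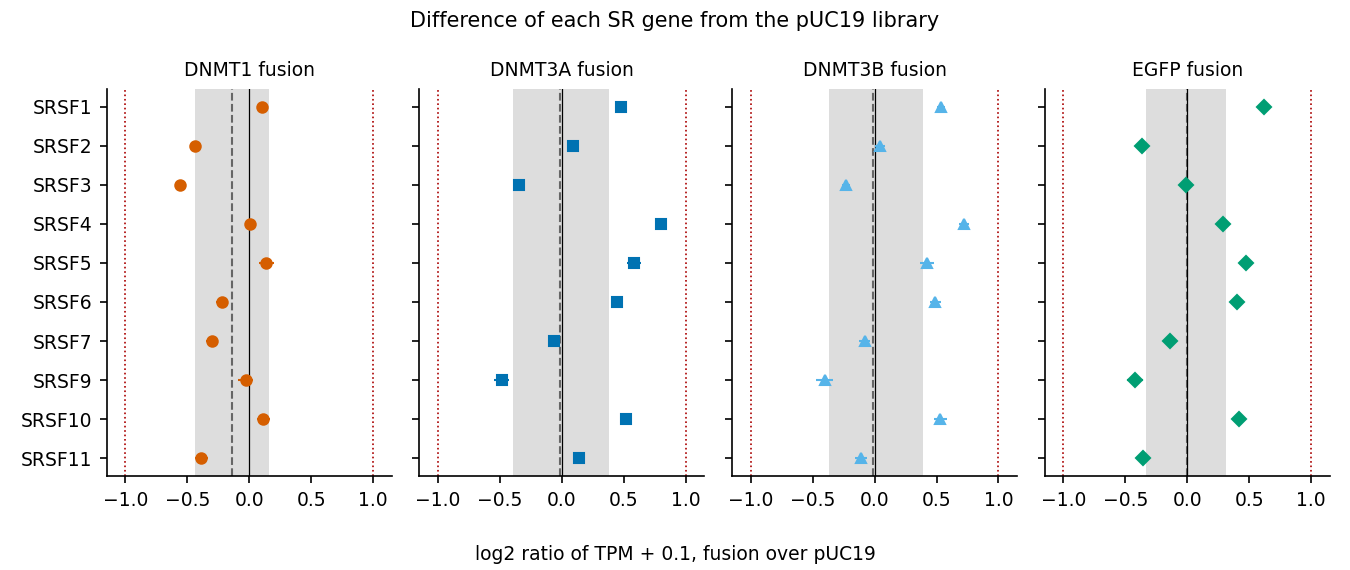
log2 ratio of TPM + 0.1 of each SR gene in each fusion library over pUC19, with 95% intervals of counting error. The grey band spans the middle 50% of 13921 genes, the dashed line is their median and the dotted lines mark a fold of 2. Every point lies inside the dotted lines, and SRSF4 with the DNMT3A (0.80) and DNMT3B (0.72) fusions lies the farthest out.

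SRSF1, SRSF4, SRSF5 and SRSF10 were higher in each of the 4 fusion libraries than with pUC19, on the TPM scale (23.7% of genes) and after TMM scaling (28.9% of genes), although SRSF4 with the DNMT1 fusion was within counting error of the control on the TPM scale (0.01, 95% interval -0.04 to 0.05). SRSF3, SRSF7 and SRSF9 were lower in all 4 on the TPM scale (32.7% of genes), but only SRSF7 was after TMM scaling (29.0% of genes), where SRSF9 with the DNMT1 fusion was at 0.12. SRSF3 with the EGFP fusion was within counting error of the control (-0.01, -0.04 to 0.02), as was SRSF9 with the DNMT1 fusion (-0.03, -0.09 to 0.03). Read against these shares, the counts set the family apart in neither direction.

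To ask whether the distance to pUC19 was larger than the spread of the fusion libraries, the read counts of the 4 fusions were set against pUC19 with edgeR's quasi-likelihood F-test and Benjamini-Hochberg adjustment over all 16001 genes tested. The 4 constructs stand in for replicates, so their spread holds construct differences. The lone pUC19 library is assumed to vary as the fusions do, and a difference of that library or of how its cells were collected cannot be told apart from that of the fusions. No SR gene passed an adjusted p of 0.05, and 0.737% of genes did (15 higher and 103 lower). With DESeq2, 0 of the 10 passed as well. Unadjusted p-values under 0.05 were found for 3 of the 10, against 18.0% of all genes tested: SRSF1 (log2 fold change 0.49, SE 0.20, adjusted p = 0.247, edgeR), SRSF5 (0.46, SE 0.20, adjusted p = 0.265) and SRSF10 (0.45, SE 0.20, adjusted p = 0.269). SRSF4 had the largest estimate (0.54, 95% interval -0.10 to 1.17, adjusted p = 0.350, edgeR). The interval of SRSF4 reached past a doubling, so this fit does not set a limit below a doubling for it.

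The EGFP fusion carries the same dCas9, BFP and guides without a methyltransferase and is the closest control for the 3 methyltransferase fusions. No SR gene differed from it by 2-fold, whereas 2.95% of genes did with DNMT1, 5.74% with DNMT3A and 5.38% with DNMT3B. With the DNMT1 fusion, 9 of the 10 genes were below the EGFP library (66.4% of genes), SRSF11 within counting error (-0.03, 95% interval -0.08 to 0.03), and after TMM scaling 7 were (49.5% of genes). SRSF6, at -0.63 (95% interval -0.67 to -0.58), was the farthest and the only one past a fold of 1.5 (12.8% of genes). SRSF3 was at -0.55, SRSF1 at -0.51 and SRSF9 at 0.39 in the other direction. Relative to the median of all genes in that comparison (-0.13), SRSF6 was at -0.50, SRSF3 at -0.42, SRSF1 at -0.38 and SRSF9 at 0.52, while SRSF2 (0.06) and SRSF11 (0.10) lay above the median.

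The DNMT3A and DNMT3B fusions differed from the EGFP fusion most in SRSF4 (0.51 and 0.43), SRSF2 (0.45 and 0.41) and SRSF11 (0.50 and 0.25), and in the other direction in SRSF3 (-0.34 and -0.22). None passed a fold of 1.5, which 20.7% and 19.6% of genes did. The DNMT3A and DNMT3B libraries were close to each other for the whole family, with differences from -0.12 (SRSF3) to 0.25 (SRSF11), none past a fold of 1.5, which 4.60% of genes passed.

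The DNMT1 library held the lowest TPM of the 4 fusion libraries for 9 of the 10 SR genes (all but SRSF9), as it did for 41.9% of genes. After TMM scaling this held for 7 (SRSF1, SRSF3, SRSF4, SRSF5, SRSF6, SRSF7 and SRSF10) against 27.7% of genes, and the EGFP library was then the lowest for SRSF2 and SRSF11. The DNMT1 group is 1 library, so its level cannot be told apart from that of the library.

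Among the 4 fusion libraries, DNMT3A and DNMT3B were compared with DNMT1 and EGFP to set the de novo methyltransferase domains against the other partners. SRSF4 was higher with DNMT3A and DNMT3B by a log2 fold change of 0.56 (SE 0.12, 95% interval 0.29 to 0.82, adjusted p = 0.0220, edgeR) and SRSF2 by 0.41 (SE 0.11, 0.15 to 0.66, adjusted p = 0.0489). These were the 2 SR genes of 10 that passed, where 11.0% of 15332 genes did. Both were higher in each of the 2 libraries than in each of the others.

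**Figure D3:**
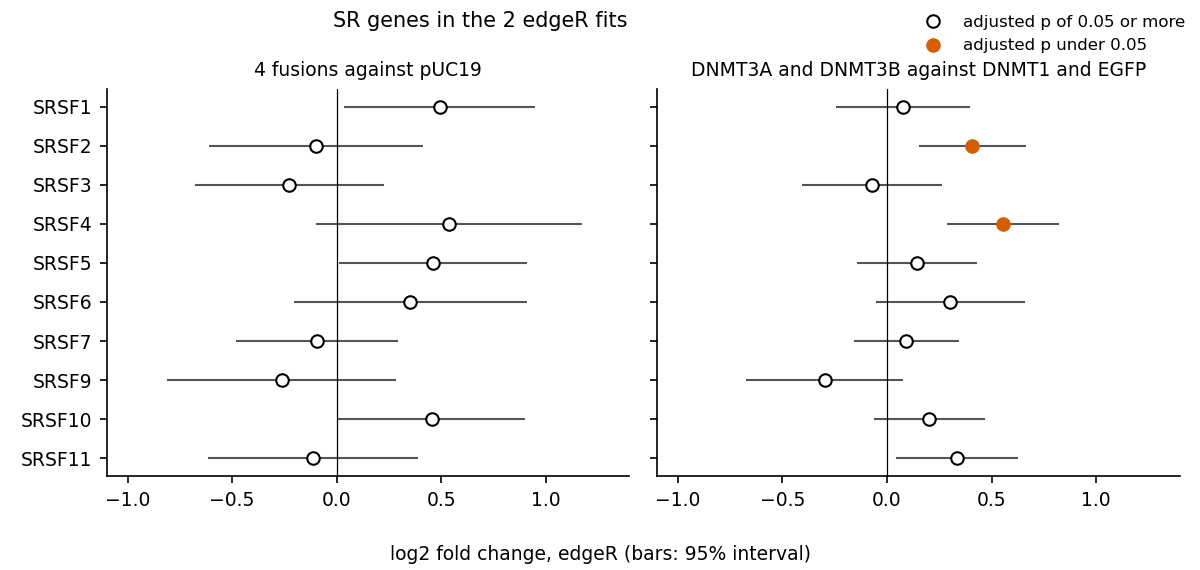
log2 fold changes of the 10 SR genes in the 2 edgeR fits, with 95% intervals. Filled points have an adjusted p under 0.05, which in the left panel is no gene and in the right panel SRSF4 (0.56) and SRSF2 (0.41).

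SRSF11 (0.34, SE 0.13, adjusted p = 0.127, edgeR), SRSF6 (0.30, SE 0.16, adjusted p = 0.240) and SRSF10 (0.20, SE 0.12, adjusted p = 0.291) had positive estimates that did not pass, and SRSF9 had the lowest (-0.30, SE 0.17, adjusted p = 0.265). The 2 libraries were above both others for 6 of the 10 genes (SRSF2, SRSF4, SRSF6, SRSF7, SRSF10 and SRSF11), against 34.9% of genes on the TPM scale and 30.6% after TMM scaling. The median estimate of the 10 genes was 0.17, beside -0.01 over all genes tested.

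Both calls rest on having both de novo libraries. Without DNMT3A the adjusted p was 0.309 for SRSF4 and 0.435 for SRSF2, and without DNMT3B 0.191 and 0.326 (edgeR, with the lone library assumed to vary like the others), with log2 fold changes of 0.38 to 0.60 throughout. Without EGFP the log2 fold changes were 0.63 for SRSF4 and 0.38 for SRSF2. With no filter on low counts SRSF2 did not pass (adjusted p = 0.0618, edgeR).

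Genes that act with the SR proteins were counted from lists of other splicing and RNA-processing genes, in the same fits. Of 16 SR-related proteins, 2 passed as higher with DNMT3A and DNMT3B than with DNMT1 and EGFP, a share close to the 11.0% of all genes called in that fit. There 6 of the 16 had an unadjusted p under 0.05, beside 28.8% of all genes tested. None passed in the other fit with edgeR or DESeq2, where 0 had an unadjusted p under 0.05. LUC7L3, a U1 snRNP-associated protein, was higher by 0.72 (SE 0.13, adjusted p = 0.0133, edgeR), at 188.6 and 153.6 TPM with DNMT3A and DNMT3B against 94.0 and 106.3 TPM with DNMT1 and EGFP and 92.4 TPM with pUC19. PNN, a protein of nuclear speckles, was higher by 0.46 (SE 0.12, adjusted p = 0.0390, edgeR, and 0.0556 with no filter on low counts). It was at 156.8 and 148.8 TPM with DNMT3A and DNMT3B, 106.8 and 107.4 TPM with DNMT1 and EGFP and 149.1 TPM with pUC19, so that the latter pair of fusions was the low one. Against pUC19, where the list's median was 0.03, LUC7L3 had the highest estimate (0.60, adjusted p = 0.388, edgeR) and SREK1 the lowest (-0.39, adjusted p = 0.297).

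Of the 7 SR protein kinases and the importin, none passed in either fit, whether with edgeR or with DESeq2, and 1 in the first fit and 3 in the second had an unadjusted p under 0.05, beside 18.0% and 28.8% of all genes tested. TNPO3, the transportin of SR proteins, had the highest estimate against pUC19 (0.50, adjusted p = 0.211, edgeR), with 89.7 TPM with pUC19 and 109.8 to 140.6 TPM in the fusion libraries. SRPK1, which phosphorylates SR proteins in the cytoplasm, had the lowest (-0.38, adjusted p = 0.309), with 163.2 TPM and 113.9 to 139.0 TPM. SRSF8 (-0.11, adjusted p = 0.827) and SRSF12 (0.00, adjusted p = 0.994) were near 0.

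The hnRNPs often oppose SR proteins at splice sites. Of 17, HNRNPL fell in the fusion libraries, from 655.1 TPM to 144.3 to 188.7 TPM (log2 fold change -1.95, SE 0.20, adjusted p = 0.0115, edgeR), and none rose. HNRNPL passed under all 8 alternative settings, and 0.737% of all genes tested passed in the main fit. The median of the list was -0.36 beside 0.03 for all genes tested, and 3 of 17 had a positive estimate, with HNRNPA0 the highest (0.18, adjusted p = 0.634). An unadjusted p under 0.05 was found for 6 of the 17, beside 18.0% of all genes tested. The summed level of the list was 7766 TPM with pUC19 and 5276 to 5841 TPM in the fusion libraries.

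With DNMT3A and DNMT3B against DNMT1 and EGFP, 2 of 17 hnRNPs passed as lower and 1 as higher. Of all genes tested, 11.0% passed that fit. An unadjusted p under 0.05 was found for 5 of the 17, beside 28.8% of all genes tested. HNRNPH1 was lower by 0.70 on the log2 scale (SE 0.12, adjusted p = 0.00905, edgeR), with 211.2 and 207.4 TPM against 323.6 and 329.2 TPM. With pUC19 it was at 598.9 TPM, above every fusion library. HNRNPA3 was lower by 0.41 (SE 0.12, adjusted p = 0.0499, edgeR), at 94.4 and 97.5 TPM against 122.0 and 123.3 TPM. It too was higher with pUC19 (210.6 TPM). The HNRNPA3 call was lost with an offset for GC content and length (-0.33, adjusted p = 0.138). It was also lost with no filter on low counts (-0.40, adjusted p = 0.0768). PTBP2, a neuronal splicing repressor, was higher by 0.69 (SE 0.17, adjusted p = 0.0338, edgeR, and 0.0555 with no filter). It was at 37.3 and 41.9 TPM with DNMT3A and DNMT3B, 19.0 and 28.5 TPM with DNMT1 and EGFP and 41.9 TPM with pUC19, so that it was not above the control.

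**Figure D4:**
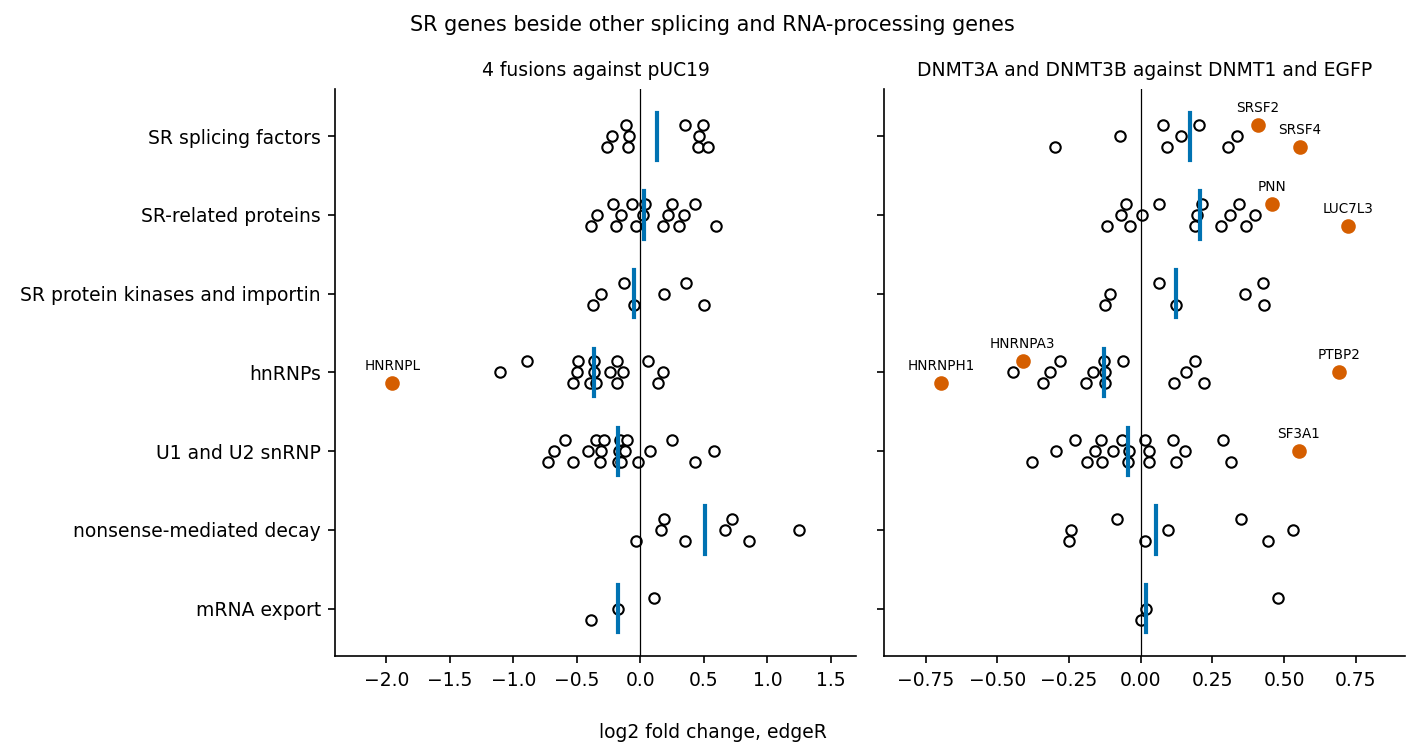
log2 fold changes of the SR genes and of 6 other gene lists in the 2 edgeR fits. Each point is a gene, filled and named where the adjusted p was under 0.05, and the blue bar is the list's median. The SR median was 0.13 against pUC19 and 0.17 with DNMT3A and DNMT3B against DNMT1 and EGFP, and the hnRNP medians were -0.36 and -0.13.

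The list of 20 U1 and U2 snRNP genes includes PRPF8 of the U5 snRNP, and SNRNP70 was counted with the SR-related proteins. Of the 20, 1 passed with DNMT3A and DNMT3B against DNMT1 and EGFP, beside 11.0% of all genes tested. In that fit 4 had an unadjusted p under 0.05, beside 28.8% of all genes tested. SF3A1, a U2 subunit, was higher by 0.55 (SE 0.13, adjusted p = 0.0274, edgeR), at 256.0 and 297.2 TPM against 182.8 and 180.0 TPM. Against pUC19 none passed with edgeR, 4 had an unadjusted p under 0.05 (18.0% of all genes tested) and 2 passed with DESeq2, where 1041 genes passed in all. SNRPE, a Sm core protein, had the lowest estimate (-0.73, adjusted p = 0.106, and 0.0206 with DESeq2) and SF3A1 the highest (0.58, adjusted p = 0.322). Every call of these lists in the second fit was lost without DNMT3A or without DNMT3B.

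Of 8 factors of nonsense-mediated decay, the pathway that removes SR transcripts with premature stops, none passed in either fit with edgeR. An unadjusted p under 0.05 was found for 4 in the first fit and 3 in the second, beside 18.0% and 28.8% of all genes tested. With DESeq2, 2 passed in each fit, where 1041 and 2190 genes passed in all. The list's median against pUC19 was 0.51. UPF1, the helicase at its core, had the highest estimate (1.25, SE 0.31, adjusted p = 0.0941, edgeR), at 79.2 TPM with pUC19 and 118.0, 225.2, 212.7 and 176.3 TPM with the DNMT1, DNMT3A, DNMT3B and EGFP fusions. UPF1 passed without the DNMT1 library (adjusted p = 0.0482) and with DESeq2 (adjusted p = 0.00469). UPF3A had the lowest estimate (-0.03, adjusted p = 0.950, edgeR). Of the mRNA export genes, which SR proteins contact, NXF1 (0.10, adjusted p = 0.871, edgeR), NXT1 (-0.39, adjusted p = 0.362) and ALYREF (-0.18, adjusted p = 0.646) did not pass against pUC19, nor in the other fit, where DESeq2 passed 1 of the 3.

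Each table holds a percentage named coverage for every gene. The sources used here do not define it, and it was taken as the share of the RNA sequence that reads had reached. For SRSF3 it was 99.82% with pUC19 and 91.90%, 85.44%, 89.29% and 95.70% with the DNMT1, DNMT3A, DNMT3B and EGFP fusions. For SRSF11 it was 98.43% with pUC19 and 93.61%, 82.03%, 85.13% and 91.13%. Both genes, and SRSF1 (95.52% against 88.86% to 90.33%), were below pUC19 in all 4 fusion libraries, by more than the lower quartile of 5393 genes with at least 1000 reads in every library.

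For SRSF10 the fusion minus pUC19 difference was -11.77 and -11.08 percentage points with the DNMT3A and EGFP fusions and -2.26 and -4.76 points with DNMT1 and DNMT3B. SRSF9 went the other way, 1.33 to 4.07 points above pUC19. Over the 5393 genes the median difference lay between -0.37 (DNMT1) and -1.34 points (EGFP), with lower quartiles of -3.34 to -4.66. The pUC19 library was also the deepest, and SRSF3 had 18448 reads there and 9717 to 12987 in the fusion libraries. SRSF11 likewise had 8864 and 4893 to 7788. SRSF1 had 15445 reads with pUC19 and 12911, 17156, 15825 and 16766 with the DNMT1, DNMT3A, DNMT3B and EGFP fusions. SRSF10 had 6517 with pUC19 and 5471, 7470, 6655 and 6183 in the same order. The part of depth in these coverage differences was not tested.

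**Figure D5:**
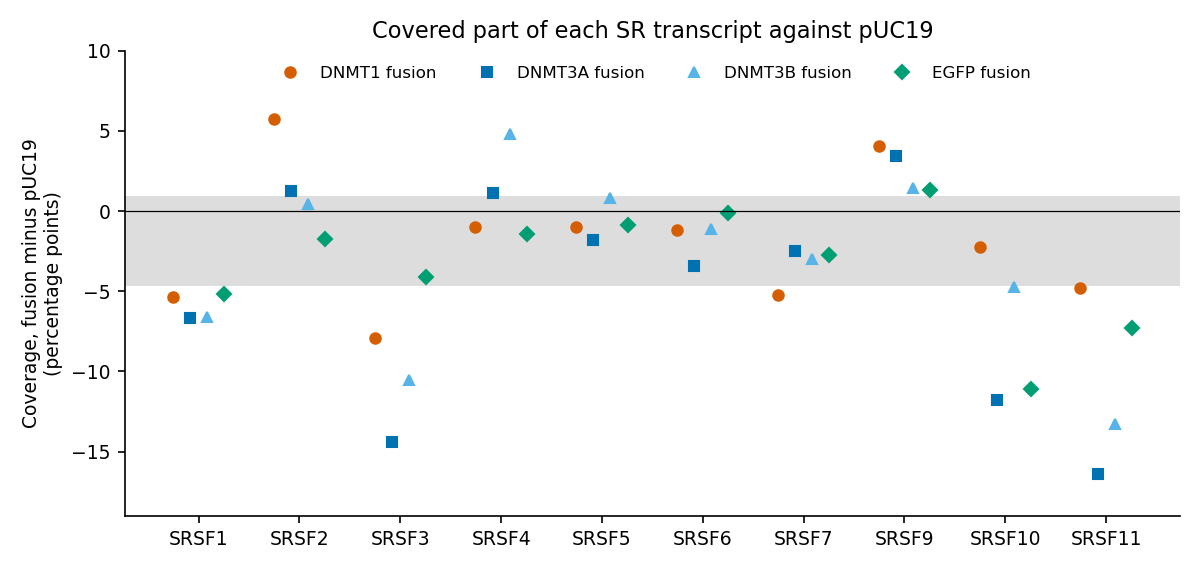
Coverage of each SR transcript in each fusion library minus that in the pUC19 library, in percentage points. The grey band spans from the lowest lower quartile (-4.66) to the highest upper quartile (0.92) over the 4 libraries, for 5393 genes. SRSF3 and SRSF11 with the DNMT3A fusion (-14.38 and -16.40) lie the farthest below the band.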

How the data were processed

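RNA sequencing of 5 HEK293T libraries was analysed, 1 per group, with groups taken from the sample titles. Fragmented poly(A) RNA was read on an Ion Proton. Reads of poor quality were removed by the authors, who aligned the remainder with tmap (version and RefSeq release not given in the sources used here) to hg19 RefSeq RNA with few mismatches and kept unique matches. The deposited counts are such reads per gene, without normalization. TPM, as deposited by the authors, is the count over the gene's length with a library sum of 1000000, and recomputing them gave the same values. The coverage in percent deposited by the authors was used as given. Rows with a gene ID but no symbol (36, up to 0.0058% of the reads) stayed in the library sizes and fits. Unique counting can lower genes with near-identical copies.

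Single libraries were compared by log2 ratios of TPM + 0.1, which understate changes of low genes, among genes with a mean of at least 1 TPM, with no test. Two-group fits used edgeR 4.0.16 (R 4.3.3) on the counts, with TMM, filterByExpr, the quasi-likelihood F-test and a Benjamini-Hochberg adjusted p under 0.05; p-values measure the spread between constructs, not between replicate cultures. DESeq2 1.42.0, other scalings, no filter, a loess offset (span 0.3) on GC content and length where GC was known (89.25% of genes), and leaving out each fusion library were alternatives. The fits were also run on simulated counts, with larger changes than those of the SR genes and less spread than these libraries. That run does not show how the fits behave with constructs in place of replicates. Positions are from GENCODE v44 on GRCh37, and promoter windows were not at hand for SRSF2.

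Named genes are the 10 members, the genes of each list with the highest and the lowest log2 fold change against pUC19, and those called in a fit, with lists of at most 3 genes named in full. The methyltransferases, PLAU and the overlapping genes DYNLL1, GATC and MFSD11 were named beside these. The members and the lists were chosen with earlier results of these data known.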

Additional observations from a re-analysis of the deposited data

Results flagged for a closer look

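SRSF4 and SRSF2 differed between the fusion partners by a test of the difference itself. SRSF4 was higher with DNMT3A and DNMT3B than with DNMT1 and EGFP by a log2 fold change of 0.56 (SE 0.12, adjusted p = 0.0220, edgeR), in 2 of 2 libraries against each of the other 2. SRSF2 was higher by 0.41 (SE 0.11, adjusted p = 0.0489, edgeR), also in 2 of 2. Against pUC19, SRSF2 with these fusions was near the control (log2 ratios of TPM of 0.09 and 0.04) and lower with DNMT1 and EGFP (-0.43 and -0.36), whereas SRSF4 was above it with DNMT3A and DNMT3B (0.80 and 0.72) and EGFP (0.29) and level with it with DNMT1 (0.01). The share of all genes that passed the same fit was 11.0%. Both de novo libraries lay above both others for 34.9% of genes on the TPM scale and 30.6% after TMM scaling. Both calls rest on having both de novo libraries, and with no filter on low counts SRSF2 did not pass (adjusted p = 0.0618, edgeR).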

How the results depend on the processing

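No paired analysis was possible because each group had 1 library. The depth limits little for the SR genes, whose counting intervals are narrow (SRSF9 with the EGFP fusion, the member with the fewest reads, 215.4 TPM, 207.6 to 223.3). The limit is the single library per group. The count of SR genes at 2-fold or more from pUC19 or from the EGFP fusion was 0 under a pseudocount of 1 TPM, TMM or median-ratio scaling, an added test of the reads at an adjusted p of 0.001, no minimum and a minimum of 10 TPM. At a fold of 1.5 it was 1 for DNMT3A, DNMT3B and EGFP against pUC19 and 1 for DNMT1 against EGFP. For the 4 fusions against pUC19 it was 0 under all 8 alternatives, while calls over all genes went from 118 to 1041 with DESeq2, to 252 with no filter and to 65 to 95 without one fusion library. With the DNMT3A and DNMT3B libraries set against the DNMT1 and EGFP libraries, 2 SR genes became 1 with no filter and 0 to 6 without one library (0 without DNMT3A or DNMT3B, 3 without DNMT1, 6 without EGFP). Calls over all genes in that fit, 1694, became 2190 with DESeq2, 1052 with no filter, 18 without DNMT3A, 53 without DNMT3B, 3536 without DNMT1 and 3850 without EGFP.

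Some small estimates changed sign. None of these values passed the threshold except SRSF1 without EGFP in the second fit (0.28, adjusted p = 0.0394, edgeR). With the GC and length offset, SRSF7 against pUC19 was at 0.12, SRSF11 at 0.15 and UPF3A at 0.16. SRSF12 against pUC19 was at -1.4e-05 with DESeq2, -3.6e-05 with median-ratio scaling, -0.013 with no filter and -0.053 to 0.044 without one library. Without one library, NXF1 ran from -0.0052 to 0.23, PAX2 from -0.076 to 0.050, and in the second fit SRSF1 from -0.10 to 0.28 and SRSF3 from -0.26 to 0.15. The cause of these changes was not tested.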
